A study of Mus musculus with 4 samples.

Results

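The elastic fibre genes comprised *Eln*, *Fbn1*, *Fbn2*, *Fbln1*, *Fbln2*, *Fbln5*, *Mfap4*, *Mfap5*, *Lox* and *Loxl1*. They were chosen by name, and all 10 were found among the 24637 genes of the expression table. RNA-seq was performed on cardiac cultures grown from mouse embryonic stem cells (ESCs), with 2 wild-type (WT, genotype Taf4+/+) libraries and 2 libraries labelled *Taf4a*-/- (genotype Taf4-/-). *Taf4a* encodes a subunit of the general transcription factor TFIID. Each replicate was a separate ESC line taken from blastocysts of heterozygous crosses, so that the lines of a genotype were not the same clone and the allele was constitutive. All lines were kept on inactivated feeder fibroblasts with LIF, grown as embryoid bodies for 5 days in medium with serum and then plated on gelatin for 9 days. The comparison asked how loss of *Taf4a* altered the RNA of these cultures.

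Elastic fibres give arteries, heart valves, lung and skin their recoil. Fibrillins assemble into microfibrils, on which the soluble monomer tropoelastin is deposited with the help of fibulins and microfibril-associated proteins. Lysyl oxidases then cross-link the monomers into insoluble elastin. In the developing heart and vessels these proteins are made mainly by smooth muscle cells, fibroblasts and other mesenchymal cells.

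The libraries held from 21732746 to 27733034 reads on genes, and the 10 most abundant genes took 4.43% to 5.45% of them. Values are normalised read counts, that is reads divided by the size factor of the library. Differences are log2 fold changes on the scale log2(normalised count + 1), tested with limma and called at an adjusted p below 0.05. With 2 libraries a group, an exact permutation test of a single value could not give a p below 0.333. The count of *Taf4a* was 889 and 678 in WT and 1722 and 1799 in the libraries labelled *Taf4a*-/-, a log2 fold change of 1.18 ± 0.16 (SE, adjusted p = 0.00569). The null allele lacks only part of the gene, so a count over the whole gene did not check the genotype labels, and every direction given here rests on those labels. The lines also differed in sex-linked RNA. *Eif2s3y*, a gene of the Y chromosome, gave 1688 and 0 in WT and 309 and 0 in the libraries labelled *Taf4a*-/-. *Xist*, which silences an X chromosome, gave 6.14 and 7.27 in WT and 217 and 6470 in the others. The part of sex in the results was not tested.

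Promoter windows of RefSeq (GRCm38.p6) were matched by symbol for 4 of the 10 genes, *Fbn1*, *Fbln1*, *Fbln2* and *Fbln5*, with 6 windows in all. The 250 bases before a transcription start are shown for a window of each of these 4 genes, 5′ to 3′ on the strand of the gene. Their changes run from a small difference without a call (*Fbn1*) to a steep fall (*Fbln5*). No window was matched for *Lox* or *Eln*. Capitals mark a GC box (GGGCGG, or CCGCCC where it lies on the other strand) and a CCAAT box. The windows lie at chr2:125506439-125506688 on the minus strand for *Fbn1*, chr15:85205758-85206007 on the plus strand for *Fbln1*, chr6:91212514-91212763 on the plus strand for *Fbln2* and chr12:101819120-101819369 on the minus strand for *Fbln5*.
Fbn1: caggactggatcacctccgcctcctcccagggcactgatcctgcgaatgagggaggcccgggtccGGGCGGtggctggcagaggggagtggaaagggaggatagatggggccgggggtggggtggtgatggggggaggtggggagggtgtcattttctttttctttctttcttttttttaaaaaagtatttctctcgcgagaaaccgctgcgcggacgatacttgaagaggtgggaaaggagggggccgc
Fbln1: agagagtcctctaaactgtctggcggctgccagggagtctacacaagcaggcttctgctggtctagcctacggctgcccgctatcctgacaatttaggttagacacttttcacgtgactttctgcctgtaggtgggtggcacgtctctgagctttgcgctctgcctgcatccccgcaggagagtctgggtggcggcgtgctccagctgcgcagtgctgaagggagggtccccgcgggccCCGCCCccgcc
Fbln2: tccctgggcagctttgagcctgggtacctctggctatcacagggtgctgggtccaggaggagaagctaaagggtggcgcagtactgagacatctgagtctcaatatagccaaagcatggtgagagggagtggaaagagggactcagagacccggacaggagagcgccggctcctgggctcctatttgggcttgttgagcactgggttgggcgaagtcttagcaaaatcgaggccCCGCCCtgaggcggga
Fbln5: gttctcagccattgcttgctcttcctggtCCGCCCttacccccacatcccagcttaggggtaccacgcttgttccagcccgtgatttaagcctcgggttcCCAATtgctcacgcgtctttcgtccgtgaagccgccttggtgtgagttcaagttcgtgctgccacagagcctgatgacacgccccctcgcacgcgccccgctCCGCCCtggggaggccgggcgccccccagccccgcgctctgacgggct

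The 4 windows printed were rich in G and C, with 59.2% in *Fbn1*, 62.4% in *Fbln1*, 58.8% in *Fbln2* and 65.2% in *Fbln5*. The median over all 32851 windows was 52.4%. Those printed held 13, 14, 8 and 21 CpG dinucleotides, in the same order, where the median window held 6. A GC box was present in each of the 4 windows printed, and in 32.7% of all windows. It lay at position -185 to -180 from the start in *Fbn1*, at -11 to -6 in *Fbln1* and at -16 to -11 in *Fbln2*. *Fbln5* held it at -221 to -216 and again at -48 to -43. The CCAAT box, present in 33.8% of all windows, was found only in that *Fbln5* window, at -150 to -146. Neither the TATA box letters TATAAA (12.4% of all windows) nor the M-CAT letters CATTCC (12.6%) occurred in any of the 6 windows, on either strand. A second window of *Fbln1* and a second of *Fbln5*, at other starts, held none of the 4 motifs. These were not rich in G and C, with 46.4% and 49.6%, and held 7 and 6 CpG dinucleotides. For both genes the window printed is the one that held a motif, so a GC box in each window printed depends on that choice. No 2 of the motifs overlapped in the windows printed. The genes with the smallest and the largest change among these 4 thus shared the GC box letters, and the match is a description of the sequence alone.

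Of the 10 members tested, 7 were lower in the libraries labelled *Taf4a*-/-, and 0 were higher, also at an unadjusted p below 0.05. Of all 16926 genes tested, 17.3% were called lower and 11.3% higher. The fitted change was negative for all 10, with a median log2 fold change of -1.46 against -0.01 over all genes tested. In 9 of the 10 both libraries labelled *Taf4a*-/- lay below both WT libraries. Among all genes tested 36.6% lay so, and 34.5% lay the opposite way. The exception was *Loxl1*, whose groups overlapped. The changes ran from 32.9-fold for *Lox* to 1.32-fold for the fibrillins. The number of calls depended on the setting. With all libraries kept, 4 members were called lower at an adjusted p below 0.01, and 4 without a variance trend in the fit. Leaving out WT replicate 2 moved the median log2 fold change of the members to -1.13, and leaving out WT replicate 1 moved it to -1.79.

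**Figure D1:**
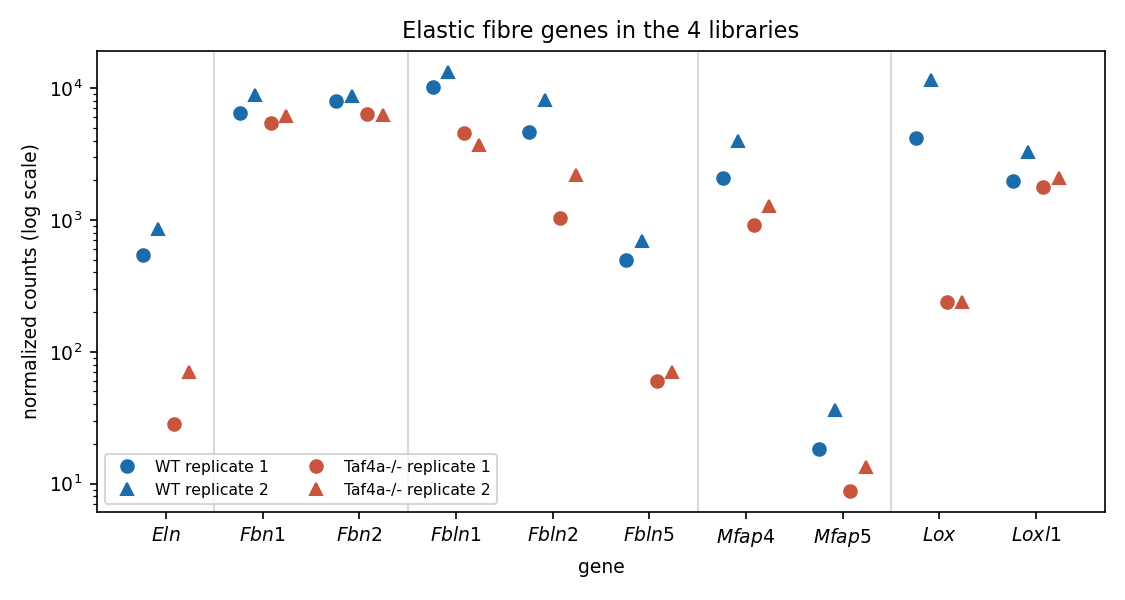
Normalised read counts of the 10 elastic fibre genes (log scale) in each of the 4 libraries, with genes grouped by role. Each point is 1 library. Both libraries labelled Taf4a-/- lie below both WT libraries for every gene except Loxl1.

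*Eln* encodes tropoelastin, the elastic core of the fibre (ENSMUSG00000029675, NCBIM37, that is mm9, chr5:135179651-135223111, minus strand, 37 exons). It gave 537 and 853 normalised counts in WT and 28.4 and 69.7 in the libraries labelled *Taf4a*-/-. The means were 695 ± 223 and 49.0 ± 29.2 (SD, n = 2 each), so that 7.05% of the WT level was left. The lowest WT library lay 7.71-fold above the highest library labelled *Taf4a*-/-, a wide gap between the groups. The log2 fold change was -3.90 ± 0.46 (SE), with a 95% interval from -5.0 to -2.79 and adjusted p = 0.00375. Without WT replicate 2 it was -3.56, with adjusted p = 0.0519. The values rested on 29 and 63 reads in the libraries labelled *Taf4a*-/-. The drop was among the steepest in the table, with 1.85% of all genes tested more negative.

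The genes of elastin cross-linking did not move alike. *Lox* encodes lysyl oxidase, the copper enzyme that oxidises lysines of tropoelastin and collagen (ENSMUSG00000024529, NCBIM37 chr18:52675723-52689521, minus strand, 8 exons). It gave 4149 and 11594 in WT and 238 and 240.0 in the libraries labelled *Taf4a*-/-. The WT lines differed by 2.79-fold, the widest gap between them of any member, whereas the other pair was nearly equal. The log2 fold change was -4.85 ± 0.44 (SE, 95% interval -5.92 to -3.79, adjusted p = 0.00192), the most negative of the 10, and 0.969% of the genes tested lay below it. *Lox* held its call under each of the 15 alternatives, between -5.59 and -4.11.

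*Loxl1* encodes a related oxidase that is bound to elastic fibres through fibulin-5 (ENSMUSG00000032334, NCBIM37 chr9:58135530-58161019, minus strand, 7 exons). It gave 1979 and 3295 in WT and 1775 and 2065 in the libraries labelled *Taf4a*-/-, so that the groups overlapped. The log2 fold change was -0.42 ± 0.24 (SE, 95% interval -1.01 to 0.18, adjusted p = 0.242). It ranged from -0.78 without WT replicate 1, where it was called with adjusted p = 0.0265, to -0.05 without WT replicate 2. Per kilobase of exon, *Lox* stood at 1.49 and 2.50 times *Loxl1* in WT and at 0.0953 and 0.0826 times *Loxl1* in the libraries labelled *Taf4a*-/-. The order of this pair of enzymes was therefore turned, by a ratio that differed at least 15.6-fold between any WT library and any library of the other group.

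All 3 fibulins were lower, by different amounts. *Fbln5* encodes fibulin-5, which binds tropoelastin and the cell surface (ENSMUSG00000021186, NCBIM37 chr12:102984775-103057265, minus strand, 11 exons). It gave 495 and 697 in WT and 59.7 and 69.7 in the libraries labelled *Taf4a*-/-, where 10.9% of the WT mean was left. Its log2 fold change was -3.17 ± 0.25 (SE, adjusted p = 0.00132). The nearest libraries of the groups lay 7.11-fold apart.

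*Fbln2*, a fibulin of valve and vessel matrix, gave 4629 and 8083 in WT and 1039 and 2205 in the libraries labelled *Taf4a*-/- (ENSMUSG00000064080, NCBIM37 chr6:91162449-91222534, plus strand, 18 exons). The groups did not overlap, although the lines within each group differed by 1.75-fold and 2.12-fold. Its log2 fold change was -2.01 ± 0.40 (SE, adjusted p = 0.0165), and -1.61 without WT replicate 2, with adjusted p = 0.112. *Fbln1*, the founding fibulin, gave 10196 and 13299 in WT and 4554 and 3707 in the libraries labelled *Taf4a*-/- (ENSMUSG00000006369, NCBIM37 chr15:85036379-85116965, plus strand, 17 exons). Its log2 fold change was -1.50 ± 0.18 (SE, adjusted p = 0.00378). *Fbln1* and *Fbln5* were called under each of the 15 alternatives. Per kilobase, *Fbln5* stood at 0.0364 and 0.0393 times *Fbln1* in WT and at 0.00983 and 0.0141 times in the libraries labelled *Taf4a*-/-, without overlap. The ratio of *Fbln2* to *Fbln1* overlapped, at 0.337 and 0.452 against 0.170 and 0.442.

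The fibrillins, which form the microfibril backbone, were the least changed of the structural genes. *Fbn2*, the fibrillin of early development, gave 7991 and 8707 in WT and 6397 and 6243 in the libraries labelled *Taf4a*-/- (ENSMUSG00000024598, NCBIM37 chr18:58168277-58369580, minus strand, 65 exons). The pairs were close and did not overlap. Its log2 fold change was -0.40 ± 0.12 (SE, adjusted p = 0.0484), and this call was lost under 10 of the 15 alternatives, with adjusted p from 0.0290 to 0.336 over all 15. *Fbn1*, the gene mutated in Marfan syndrome, gave 6426 and 8815 in WT and 5448 and 6094 in the libraries labelled *Taf4a*-/- (ENSMUSG00000027204, NCBIM37 chr2:125126330-125333729, minus strand, 65 exons). Its lowest WT library lay only 1.05-fold above the highest library of the other group, and the log2 fold change of -0.39 ± 0.18 (SE, 95% interval -0.81 to 0.04, adjusted p = 0.149) was not called. Without WT replicate 1 it was -0.61, with adjusted p = 0.0294, and without WT replicate 2 it was -0.16, with adjusted p = 0.353. An exon stretch of 2442 bases of *Fbn1* is shared with *Gm9913* on the opposite strand, and the library kit kept no strand. The length used for *Fbn1* included this stretch, so its values per kilobase are too low if reads there were not counted. The ratio of *Fbn2* to *Fbn1* per kilobase overlapped between the groups, at 1.44 and 1.14 against 1.36 and 1.19.

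The microfibril-associated proteins sat between these extremes. *Mfap4*, whose product binds tropoelastin and fibrillin, gave 2088 and 3982 in WT and 914 and 1269 in the libraries labelled *Taf4a*-/- (ENSMUSG00000042436, NCBIM37 chr11:61298933-61302402, plus strand, 6 exons). Its log2 fold change was -1.42 ± 0.32 (SE, adjusted p = 0.0231), and -0.95 without WT replicate 2, with adjusted p = 0.0766. It shares 89 exon bases with *Mapk7* on the opposite strand, which gave 1954 and 1960 against 1824 and 1701 (adjusted p = 0.348). *Mfap5*, a small glycoprotein of microfibrils, was scarce (ENSMUSG00000030116, NCBIM37 chr6:122455863-122479308, plus strand). It gave 18.4 and 36.4 in WT and 8.81 and 13.3 in the libraries labelled *Taf4a*-/-, from 21, 35, 9 and 12 reads. The groups did not overlap, but the log2 fold change of -1.19 ± 0.52 (SE, adjusted p = 0.134) was not called. It was -0.71 without WT replicate 2 (adjusted p = 0.364) and -1.66 without WT replicate 1 (adjusted p = 0.0755).

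**Figure D2:**
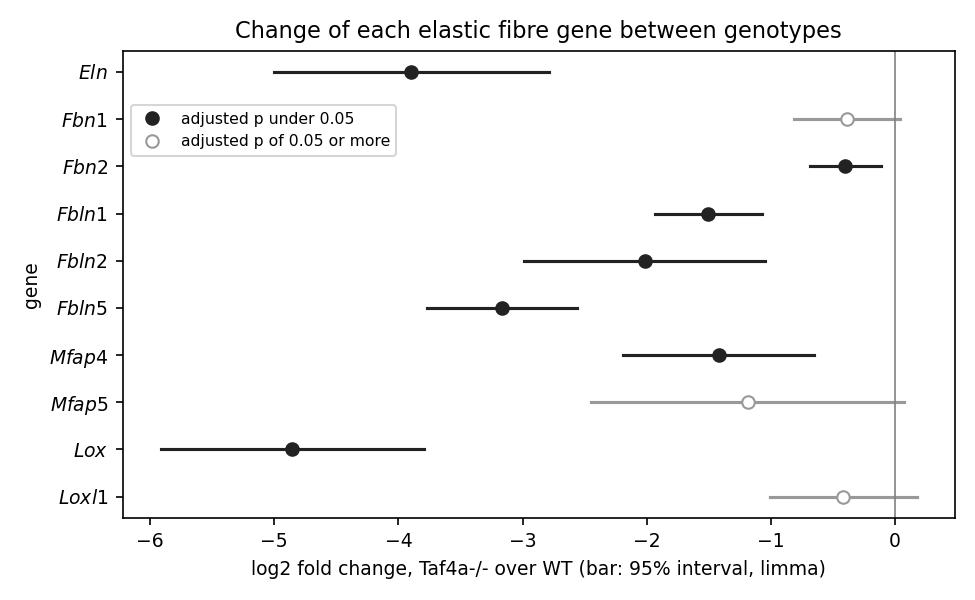
Log2 fold change of each elastic fibre gene, Taf4a-/- over WT, with its 95% interval from limma (horizontal bars). Filled points passed an adjusted p of 0.05: Lox, Eln and Fbln5 lie furthest left, at -4.85, -3.90 and -3.17, and the open points of Fbn1, Mfap5 and Loxl1 have intervals that reach 0.

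The make-up of the elastic fibre RNA shifted with these changes. Summed over the 10 genes, reads per kilobase of exon, scaled to the reads on genes of each library (RPKM), came to 299 and 469 in WT and to 142 and 154 in the libraries labelled *Taf4a*-/-. Of this sum *Lox* took 12.1% and 20.6% in WT and 1.51% and 1.38% in the others. *Eln* took 2.86% and 2.76%, against 0.327% and 0.730%. The fibrillins together took 17.8% and 13.0% in WT and 31.5% and 29.7% in the libraries labelled *Taf4a*-/-. *Loxl1* likewise took a larger share there, 15.8% and 16.7% against 8.15% and 8.25%, without a higher level. The share of *Mfap4* was alike, at 14.9% and 17.3% against 14.2% and 17.9%. *Fbln1* was the most abundant member per length in all 4 libraries, with 96.0 and 119 against 43.9 and 35.3 RPKM. *Eln* stood at 0.393 and 0.454 times *Fbn1* per length in WT and at 0.0245 and 0.0537 times in the libraries labelled *Taf4a*-/-, without overlap.

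**Figure D3:**
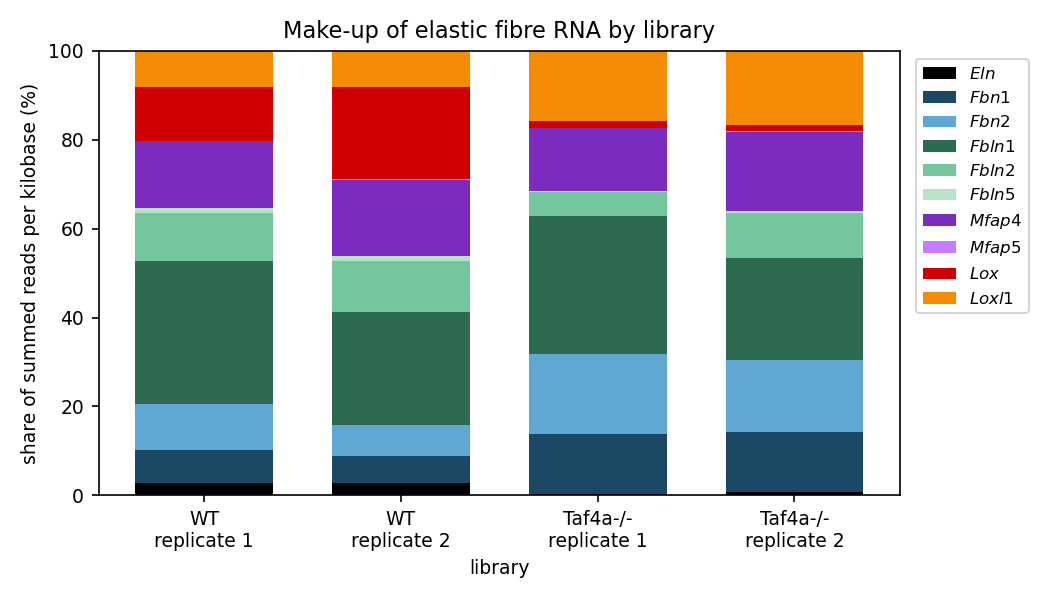
Share of each elastic fibre gene in the summed reads per kilobase of exon of the 10 genes (percent), 1 bar for each library. The Lox share is 12.1% and 20.6% in WT and under 2% in the libraries labelled Taf4a-/-, whereas the shares of Fbn1, Fbn2 and Loxl1 are larger in the latter.

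The WT lines differed from each other in these genes. All 10 were higher in WT replicate 2 than in WT replicate 1, by 0.12 (*Fbn2*) to 1.48 (*Lox*) on the log2 scale, whereas 51.8% of all genes tested were higher in that library. In the libraries labelled *Taf4a*-/-, 8 of the 10 were higher in replicate 2, all but *Fbn2* and *Fbln1*. The median difference of the members in that pair was 0.22 on the log2 scale, against 0.003 over all genes tested. For 8 of the 10 the fitted change between genotypes was larger than the gap between the WT lines. The exceptions were *Fbn1* and *Loxl1*. How many of all genes tested meet this was not counted, so 8 of 10 describes the members alone.

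**Figure D4:**
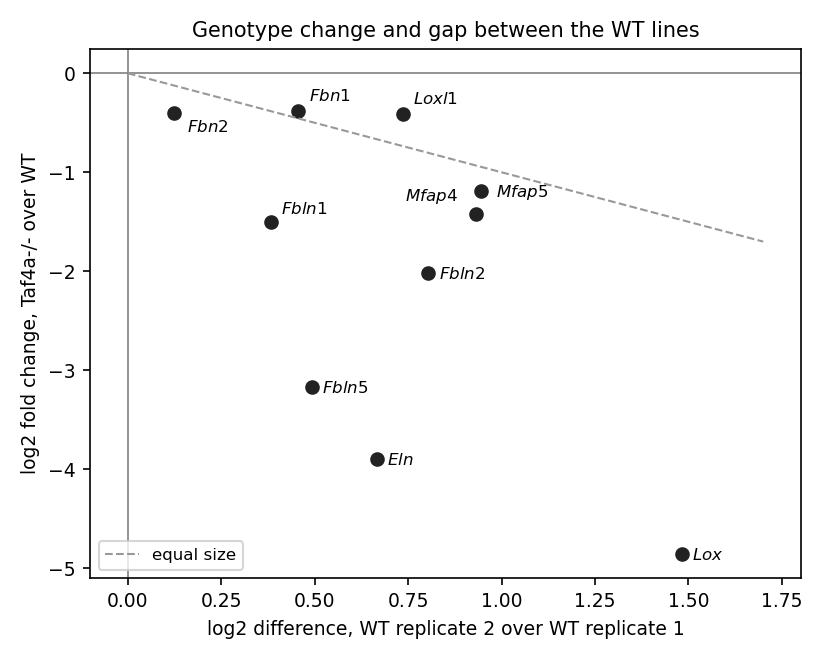
Log2 fold change between genotypes (Taf4a-/- over WT) against the log2 difference between the WT lines (replicate 2 over replicate 1), 1 point for each elastic fibre gene. All 10 points lie right of 0, and only Fbn1 and Loxl1 lie above the dashed line, where both sizes are equal.

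Markers of several cell types moved in the same comparison, in which 17.3% of all genes tested were called lower and 11.3% higher. Of 10 fibroblast and mesenchyme markers 5 were lower (*Lum*, *Dcn*, *Dpt*, *Thy1* and *Postn*) and *Prrx1* was higher, with a log2 fold change of 1.09 ± 0.12 (SE, adjusted p = 0.00326). *Twist1* also lay above both WT libraries, at 1587 and 628 in WT against 1870 and 2163, but was not called (adjusted p = 0.108). *Pdgfra*, a receptor of mesenchymal cells, gave 7098 and 5451 against 5012 and 6043. The summed level of the list was 72338 and 90120 in WT and 20545 and 27734 in the libraries labelled *Taf4a*-/-. Of 8 smooth muscle markers 5 were lower (*Myh11*, *Lmod1*, *Mylk*, *Myocd* and *Acta2*) and 0 higher, and the summed level was 31080 and 55378 against 20942 and 19977. All 8 were higher in WT replicate 2 than in WT replicate 1, as were the elastic fibre genes. Their part in the results was not tested, and in bulk RNA fewer cells of a type cannot be told apart from less RNA per cell.

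The cultures labelled as cardiac cells held cardiomyocyte RNA in WT, and less of it in the other group. All 7 cardiomyocyte markers tested were lower, where 17.3% of all genes tested were called lower and 11.3% higher. The cardiomyocyte sums were 22489 and 24374 against 1973 and 2329, and *Tnnc1* was near 0 in all libraries. The *Tnnc1* row (ENSMUSG00000091898) shares 1041 of its 1051 exon bases with *Nisch* and another *Tnnc1* entry, so its count does not measure the expression of that gene. All 6 macrophage markers were also lower, with sums of 7545 and 8411 against 179 and 188, and *C1qa* was 0 in both libraries labelled *Taf4a*-/-. All 6 pluripotent cell markers were higher, with sums of 3515 and 1346 against 12470 and 14380, and all 6 were lower in WT replicate 2 than in WT replicate 1. Of 6 endothelial markers 0 passed the limma test in either direction (2, *Emcn* and *Tek*, were lower at an unadjusted p below 0.05), and their sums were 11126 and 7324 against 5773 and 9689. The part of these cell types in the elastic fibre results was not tested.

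Set against the summed fibroblast and mesenchyme markers, 3 members were lower in both libraries labelled *Taf4a*-/- than in both WT libraries, 5 were higher in both and 2 overlapped. The lower ones were *Lox*, *Eln* and *Fbln5*. *Lox* came to 5.74% and 12.9% of that sum in WT and to 1.16% and 0.865% in the libraries labelled *Taf4a*-/-. *Eln* came to 0.743% and 0.947% against 0.138% and 0.251%, and *Fbln5* to 0.685% and 0.774% against 0.291% and 0.251%. The higher ones included *Fbn1*, at 8.88% and 9.78% against 26.5% and 22%, *Fbn2*, at 11% and 9.66% against 31.1% and 22.5%, and *Loxl1*, at 2.74% and 3.66% against 8.64% and 7.45%. *Mfap4*, whose level was called lower, was also higher on this measure, at 2.89% and 4.42% against 4.45% and 4.57%, and *Mfap5* stood at 0.0255% and 0.0404% against 0.0429% and 0.0479%. For both the nearest libraries lay close together. *Fbln1* overlapped, at 14.1% and 14.8% against 22.2% and 13.4%, as did *Fbln2*, at 6.40% and 8.97% against 5.06% and 7.95%. The sum is led by *Postn*, *Lum* and *Dcn*, which themselves fell. A member that fell less than this sum therefore comes out higher here, although the fitted change of all 10 members was negative. How many of all genes tested lay higher or lower on this measure was not counted, so these counts mark no trait of the members.

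Other genes of elastic fibre assembly were taken as 6 lists, with 51 genes tested. Of these, 29 were called lower and 1 higher, where 17.3% of all genes tested were called lower and 11.3% higher. The median of all 51 log2 fold changes was -0.91. Among 11 other microfibril, fibulin and emilin genes, 6 were lower. *Fbln7*, a further fibulin, fell with a log2 fold change of -2.48, and *Mfap2*, which encodes MAGP-1, with -1.74. *Emilin3* followed with -1.37. Few reads lay on *Fbln7*, 56 and 41 in WT and 10 and 5 in the libraries labelled *Taf4a*-/-. *Hmcn1* (hemicentin-1), a giant relative of the fibulins, was the gene that rose, by 0.85 ± 0.24 (SE, adjusted p = 0.0459).

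Latent TGF-beta binding proteins tether TGF-beta to microfibrils. Among 7 genes of these proteins and their ligands, 5 were lower. They were *Tgfb3* (-2.40), *Ltbp3* (-1.92), *Ltbp4* (-1.65), *Tgfb2* (-0.85) and *Tgfb1* (-0.69), all as log2 fold changes. *Ltbp4*, which also guides elastin deposition, gave 2052 and 2611 in WT and 692 and 789 in the libraries labelled *Taf4a*-/-. *Ltbp1* gave 4894 and 5025 against 3837 and 4634 and was not called.

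Among 8 other cross-linking and processing genes tested, 2 were lower, a share near the 17.3% of all genes tested. *Pcolce*, an enhancer of procollagen processing, fell with a log2 fold change of -2.18 ± 0.21 (SE, adjusted p = 0.00222), and *Loxl3* with -1.25 ± 0.34 (SE, adjusted p = 0.0409). The median of this list was -0.34. *Loxl2*, *Loxl4*, *Bmp1*, *Atp7a*, *Tll1* and *Pcolce2* overlapped between the groups, as *Loxl1* did. *Bmp1*, the protease that activates lysyl oxidase, gave 3299 and 4714 against 4715 and 3993. *Atp7a*, the copper pump that loads it, gave 2507 and 3218 against 3150 and 3340.

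Among 9 ADAMTS and ADAMTS-like genes, of a family in which some products bind fibrillins, 4 were lower. They were *Adamtsl3* (log2 fold change -3.77), *Adamtsl1* (-2.62), *Adamtsl5* (-1.65) and *Adamts17* (-1.19). The size for *Adamtsl3* rested on few reads, 83 and 51 in WT and 3 and 4 in the libraries labelled *Taf4a*-/-. Of 8 elastin-degrading enzymes tested, 7 were lower. *Ctss* (cathepsin S) gave 663 and 920 in WT and 0 and 2.21 in the libraries labelled *Taf4a*-/-, and *Mmp12* (macrophage elastase) gave 61.4 and 93.5 against 0.979 and 7.74. *Ctsk* (cathepsin K) gave 71.0 and 105 against 4.89 and 9.95. The enzymes called lower also included *Mmp2*, at 8137 and 14059 against 4745 and 5793, and *Mmp14*, at 6230 and 9510 against 3141 and 3033. Macrophages make both *Ctss* and *Mmp12*, and the macrophage markers given above were lower in the same libraries. The part of macrophages in the levels of these enzymes was not tested.

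**Figure D5:**
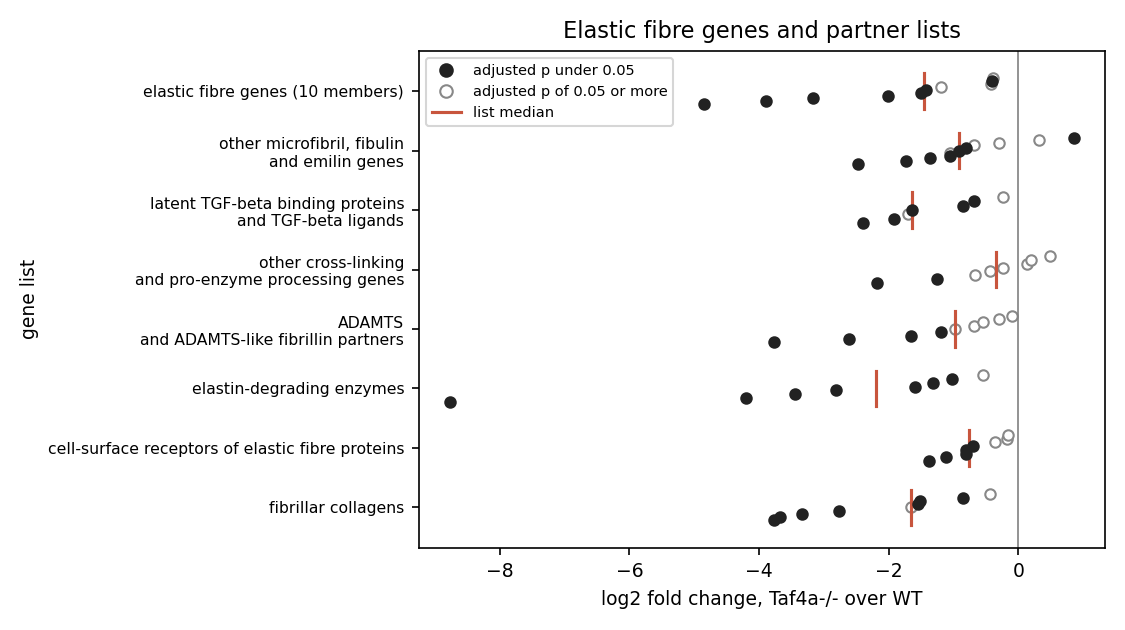
Log2 fold change (Taf4a-/- over WT) of the elastic fibre genes and of 7 lists of partner genes, 1 point for each gene tested. Filled points passed an adjusted p of 0.05 and the vertical marks are list medians: -1.46 for the elastic fibre genes, -0.34 for other cross-linking and processing genes and -2.20 for elastin-degrading enzymes.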

How the data were processed

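PolyA RNA was sequenced from 2 WT and 2 *Taf4a*-/- cultures, each from its own ESC line. Per the labels and methods, the authors used CASAVA 1.8, TopHat 1.3.3 on mm9, HTSeq 0.5.3p1 and DESeq, which the methods give as DESeq 2. The deposited values were reads divided by a size factor, written with decimal commas. Multiplying by the size factor recovered whole reads for 100% of values (tolerance 0.01 read). No column was left unmatched to a library (0). Genes with a mean of at least 10 normalised counts (16926) were fitted with limma 3.58.1 in R 4.3.3 on log2(normalised count + 1), with a variance trend and Benjamini-Hochberg adjustment. The edgeR and DESeq2 tests that had been planned were not run, because the decimal commas kept the deposited columns from being checked as counts. limma voom and TMM scaling were run on the recovered reads. All gene identifiers were found in the GENCODE annotation of NCBIM37, whose summed exon length gave reads per kilobase. On simulated data with 200 changed genes out of 16941, 96% of 2-fold and 100% of 4-fold changes were recovered, with 5.77% false calls. The simulation gave every gene the same spread between libraries (dispersion 0.0106) in both groups, and changed only genes of higher mean. These rates need not hold for genes whose lines differed more, such as *Lox*. The members and lists were chosen with earlier results of these data known. Named genes were all members, *Taf4a*, and of each other list at most the 3 called genes of largest change, plus any gene that a count of 5 or fewer refers to. *Eif2s3y*, *Xist*, *Mapk7*, *Pdgfra*, *Twist1*, *Ltbp1*, *Bmp1*, *Atp7a*, *Loxl2*, *Loxl4*, *Tll1*, *Pcolce2*, *Mmp2*, *Mmp14*, *Tnnc1* and *C1qa* were named after their values were seen. *Glb1*, with more than 1 identifier, and *Mmp7*, not matched by symbol, were left out. Each line gave 1 library, and p-values measure only the spread between these libraries. The figures were drawn with matplotlib 3.10.9 in Python 3.11.15.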

Additional observations from a re-analysis of the deposited data

How the results depend on the processing

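Of 17 other settings listed 15 were run, and the edgeR and DESeq2 tests were not run. No direction was reversed in any of the 15, and 0 members were called higher in each. The 7 members called lower became 4 without the variance trend and 4 at an adjusted p below 0.01, and ranged from 3 (without WT replicate 2) to 9 (without WT replicate 1) when a library was left out. A library left alone in its group is then assumed to vary like the other group. The 30 calls in the 6 other lists became 18 without the variance trend and 15 at an adjusted p below 0.01, and ranged from 17 to 30 when a library was left out. The causes were not tested. The median of the members ranged from -1.79 to -1.13 over the left-out libraries. Samples with the same replicate number did not deviate together across genes (correlation 0.01), and the main test left them unpaired. Whether cultures of the same number were handled together cannot be told from this, because each replicate was also a separate line. With the replicate block, 6 members were called lower and 29 genes in the other lists, and *Fbn2* had adjusted p = 0.0946. Quantile normalisation moved the median of all genes to 0.11. *Mfap5* rested on 9 to 35 reads.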

Other observations

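Fibrillar collagens, which share lysyl oxidase cross-linking with elastin, were lower in 7 of 9 genes tested, with 0 higher and a median log2 fold change of -1.66. Of all genes tested, 17.3% were called lower and 11.3% higher. *Col1a2*, *Col3a1* and *Col1a1*, the chains of the main interstitial collagens, fell furthest, with log2 fold changes of -3.77, -3.68 and -3.33. *Col5a3* and *Col11a2* did not pass. Summed over the list, the normalised counts were 408382 and 578515 in WT and 54032 and 64177 in the libraries labelled *Taf4a*-/-.

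Of 8 cell-surface receptors of elastic fibre proteins, 5 were lower, where 17.3% of all genes tested were. They were *Itga8* (-1.38), *Itgb3* (-1.12), *Ctsa* (-0.81), *Itgb5* (-0.81) and *Itgb1* (-0.70), as log2 fold changes, of which *Ctsa* encodes a protease of the elastin receptor complex and the others integrin chains. *Neu1*, *Itgav* and *Itga5* overlapped between the groups.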
